A study of Homo sapiens with 12 samples.

Results

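DFFA and DFFB encode the subunits of the DNA fragmentation factor, and the peaks that dSpCas9 eCLIP gave on their mRNAs are described here exon by exon. The members were chosen by the deposited peaks themselves: every peak of the 4 deposited lists that overlapped, on the same strand, an exon of DFFA or DFFB in the GENCODE annotation (version 44, hg38). This gave 24 of the 18128 peaks in the 4 lists, 18 on DFFA and 6 on DFFB, and the genes were 2 of the 3624 protein-coding genes on which any list had a peak. Because the rule used these peaks, their enrichments are given as a description, with no test.

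eCLIP cross-links a protein to the RNA it touches in living cells with UV light, recovers that protein by immunoprecipitation (IP) and sequences the RNA that comes with it. The protein was dSpCas9, the Cas9 of Streptococcus pyogenes with its nuclease activity lost, expressed without a nuclear localization signal and without a gRNA. The cells were HEK 293T, a human embryonic kidney line with the large T antigen of SV40, widely used because it is easily transfected. There were 6 groups with 2 replicates each, 12 libraries in all: V5 IP from cells transfected with V5-dSpCas9, their size-matched input (RNA of the same membrane region with no IP), V5 IP from cells with the empty vector, and the same groups for 3xFLAG-dSpCas9 and the FLAG antibody. In all 12 libraries the cells received 400 mJ per cm2 of UV light in each of 2 exposures, per the labels, and the membrane was taken from 115 kDa upward. All cells were transfected, so the empty vector groups share the transfection and the antibody with the dSpCas9 groups, but not the protein. The protein was expressed from a plasmid, and the cells are a single line.

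Each of the 4 lists compares the IP of 1 tag with 1 control and pools both replicates. Its values are the log2 enrichment, the log2 of the ratio of IP to control reads as a geometric mean of both replicates, and the −log10 of a p-value with a ceiling of 400. The lists held 6605 peaks for V5 over size-matched input, 3005 for V5 over empty vector IP, 6554 for FLAG over size-matched input and 1964 for FLAG over empty vector IP, and no peak had a log2 enrichment under 3.00, which is an 8-fold ratio. The lists of 1 tag share their IP libraries. Reads per peak and values of single replicates are not in them. The depth is therefore unknown, and no difference between peaks can be set against the spread between replicates.

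DFFB is the caspase-activated DNase, the enzyme that cuts chromatin between nucleosomes late in apoptosis and leaves the ladder of DNA fragments by which dying cells are known. DFFA is its chaperone and inhibitor: it helps the nascent DFFB chain to fold and then holds it inactive. Caspases cleave DFFA, and the DFFB that is set free assembles into the active nuclease.

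DFFA (ENSG00000160049) lies on the minus strand of chromosome 1 (hg38), chr1:10456522-10472529. Its canonical transcript (ENST00000377038) has 6 exons and 6035 nt, with a 5′ UTR of 71 nt, a CDS of 996 nt for 331 residues and a 3′ UTR of 4968 nt. DFFB (ENSG00000169598) lies on the plus strand of the same chromosome, chr1:3857267-3885429. Its canonical transcript (ENST00000378209) has 7 exons and 2833 nt, with a 5′ UTR of 128 nt, a CDS of 1017 nt for 338 residues and a 3′ UTR of 1688 nt. Positions on an mRNA are counted from 1 at the 5′ end of the canonical transcript.

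The stretches that the results turn on are printed here from hg38 as RNA, 5′ to 3′. The first is the only stretch of DFFA that all 4 lists share, in exon 4 (chr1:10463432-10463536, minus strand). It is all coding, and it has no capitals because no GU-loop:5nt-stem was called in it. This is the structure by which the study modelled binding of Cas9 without a gRNA, based on the guide RNA itself. It is a GU whose U has a predicted pairing probability under 0.7, followed by 5 bases with over 0.5 each.
DFFA exon 4: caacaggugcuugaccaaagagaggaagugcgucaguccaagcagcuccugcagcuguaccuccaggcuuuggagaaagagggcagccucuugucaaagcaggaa
The next line shows how the peaks run over the junction of exons 4 and 5 (chr1:10463431-10463460 joined to chr1:10463169-10463209, minus strand). Lower case marks the end of exon 4. Capitals mark the start of exon 5 as far as peaks of V5 over size-matched input cover it, which is further than in the other lists.
DFFA exon 4 to 5: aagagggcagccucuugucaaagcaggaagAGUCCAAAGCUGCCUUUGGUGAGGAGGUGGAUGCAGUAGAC
The coding part of the exon 1 peak with the highest V5 enrichment over size-matched input follows (chr1:10472380-10472458, minus strand), with the start codon in capitals.
DFFA exon 1: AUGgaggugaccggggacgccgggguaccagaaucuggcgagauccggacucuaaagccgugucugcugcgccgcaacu
The last is a site of 30 nt in the 3′ UTR of DFFB (chr1:3884348-3884377, plus strand), printed because it holds a GU-loop:5nt-stem that all 4 lists share. Folded with the flanks of the V5 peak, the stem bases had predicted pairing probabilities of 0.96 to 0.98. With the flanks of the FLAG peaks they had 0.75 to 0.97. Capitals mark the GU and the 5 stem bases after it.
DFFB exon 7: cauguaaugugGUCACCAuacucaaauggu

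DFFA had 6 peaks in V5 over size-matched input, 7 in V5 over empty vector IP, 4 in FLAG over size-matched input and 1 in FLAG over empty vector IP. DFFB had 2, 2, 1 and 1 peaks in the same order. Both genes thus had a peak in every list, where 13.6% of the 20046 protein-coding genes had a peak in V5 over size-matched input, 6.78% in V5 over empty vector IP, 13.2% in FLAG over size-matched input and 4.96% in FLAG over empty vector IP. Since the genes were chosen for their peaks, nothing is read from this difference. Several deposited peaks touched each other. After merging those, DFFA had 3, 5, 4 and 1 stretches in the same order, and DFFB had 1 in each list.

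The peaks of each mRNA kept to different regions. On DFFA, peaks of the 4 lists together covered 65 of the 71 nt of the 5′ UTR (91.5%), 429 of the 996 nt of the CDS (43.1%) and 0 of the 4968 nt of the 3′ UTR. On DFFB they covered 0 of the 128 nt of the 5′ UTR, 0 of the 1017 nt of the CDS and 121 of the 1688 nt of the 3′ UTR (7.17%). No base of any of the 24 peaks lay outside an exon, and no list held a peak within an intron of either gene or on the opposite strand of its exons.

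The 3′ UTR makes up 82.3% of the DFFA mRNA. Of the 414 protein-coding genes with an interval shared by all 4 lists, 30 had a 3′ UTR share at least as large, and 7 of these 30, DFFA among them, had no peak in the 3′ UTR. For DFFB the 3′ UTR share is 59.6%. Of the 164 such genes with a share at least as large, 58, DFFB among them, had peaks in the 3′ UTR only. Over all 414 genes, 115 (27.8%) had no 3′ UTR peak and 90 (21.7%) had 3′ UTR peaks only, so neither layout was rare.

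**Figure D1:**
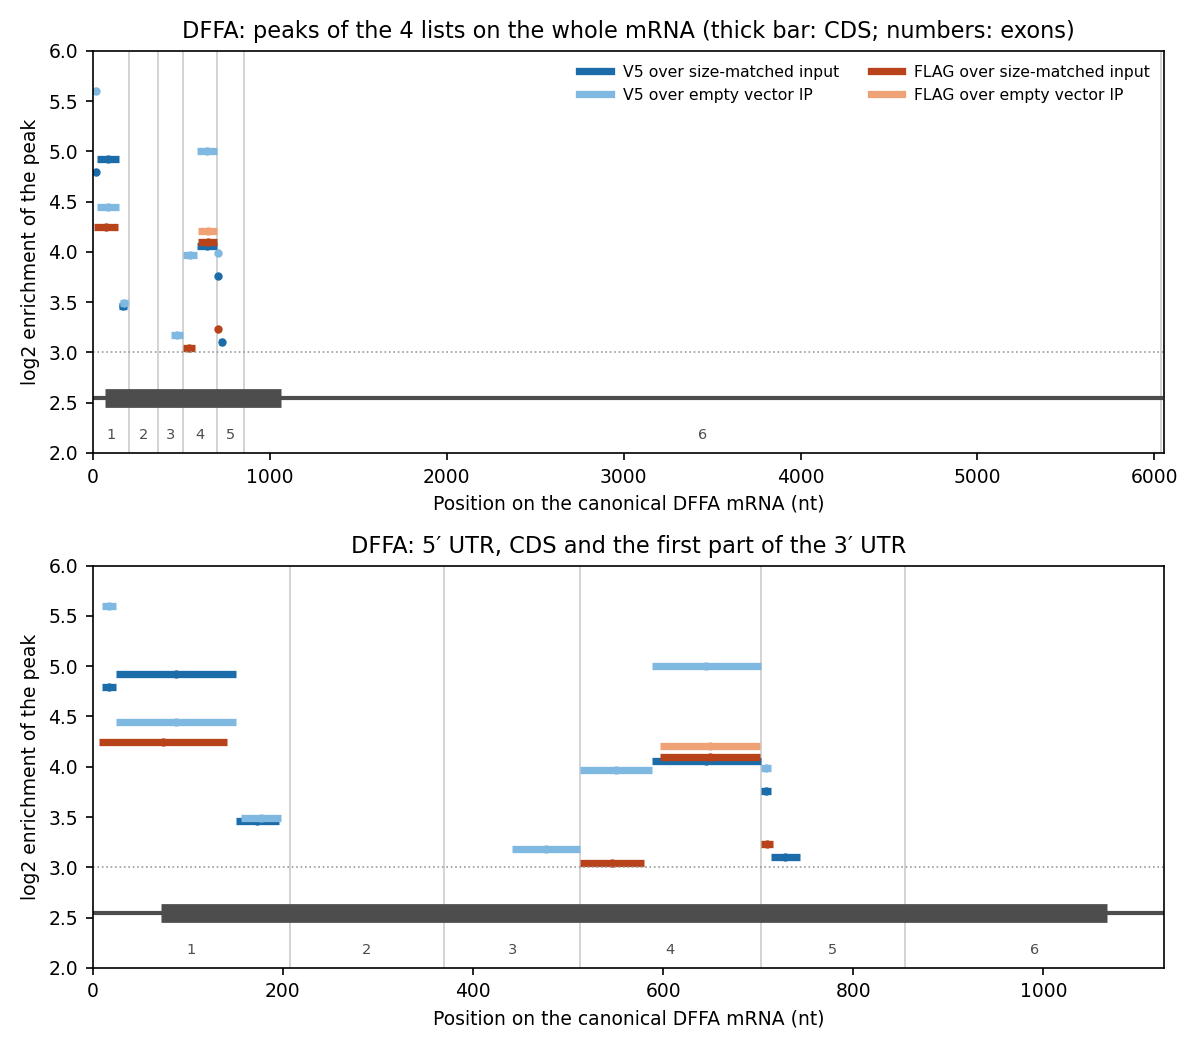
Peaks of the 4 lists on the canonical DFFA mRNA, on the whole mRNA (top) and on its 5′ end up to just past the CDS (bottom). The x axis gives the position in nt and the y axis the log2 enrichment of each peak, each horizontal bar is 1 peak at its true extent with a point at its middle, colours mark the lists, the dotted line is a log2 enrichment of 3, the lowest in the lists, and grey verticals are exon borders. Peaks sit on exon 1 and on exons 3 to 5, and the long exon 6 is empty.

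On DFFA, exon 1 (chr1:10472323-10472529, 207 nt) carried 7 of the 18 peaks. In V5 over size-matched input, a run of 3 peaks covered nt 10 to 195 of the mRNA. The 15 nt peak at the 5′ end had a log2 enrichment of 4.79, the 126 nt peak at nt 25 to 150 over the start codon had 4.92, and the 45 nt peak at nt 151 to 195 had 3.46. In this list the first 2 peaks thus stood close together, and the third, downstream of the peak over the start codon, was lower by more than 1 log2 unit. The middle peak, 47 nt of 5′ UTR and 79 nt of CDS, had a −log10 p at the ceiling of 400, as 273 of the 6605 peaks of that list did, and 5.36% of the peaks in the list had a higher enrichment.

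In V5 over empty vector IP the same first and second peaks were deposited with the same borders, and another lay at nt 156 to 198. Their log2 enrichments were 5.60, 4.45 and 3.49. Here the 15 nt peak at nt 10 to 24 was the highest of the gene, a 48.6-fold ratio and rank 42 of the 3005 peaks in the list, with a −log10 p of 13.3 against 31.9 for the longer peak beside it.

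In FLAG over size-matched input, a single peak of 135 nt, 65 nt of 5′ UTR and 70 nt of CDS, covered nt 7 to 141. Its log2 enrichment was 4.25 and its −log10 p 67.4. FLAG over empty vector IP had no peak on exon 1. The exon 1 peaks therefore were found over both controls with V5 but over size-matched input alone with FLAG, and none of exon 1 entered the intersection of the 4 lists. A missing peak in FLAG over empty vector IP was frequent: 1771 peaks of V5 over size-matched input also overlapped a peak of V5 over empty vector IP and 1 of FLAG over size-matched input, and of these 884 (49.9%) overlapped a peak of FLAG over empty vector IP. Of the 273 peaks at the ceiling of −log10 p, 110 (40.3%) did.

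Exon 4 of DFFA (chr1:10463431-10463620, 190 nt) carried 6 peaks and was the only exon of this gene with a peak in every list. The peak at its 3′ end covered nt 589 to 702 of the mRNA in both V5 lists and nt 597 to 701 in both FLAG lists. Its log2 enrichment was 4.06 in V5 over size-matched input, 5.00 in V5 over empty vector IP, 4.10 in FLAG over size-matched input and 4.21 in FLAG over empty vector IP. The V5 value over empty vector IP stood highest, a 32.0-fold ratio, and the other 3 lay close together. The −log10 p was 45.1, 24.8, 48.2 and 31.0 in the same order. In FLAG over empty vector IP this was the only peak of the gene.

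A second peak on exon 4 began at the first nucleotide of the exon. It covered nt 513 to 588 with a log2 enrichment of 3.97 in V5 over empty vector IP, and nt 513 to 579 in FLAG over size-matched input, where it had 3.05, the lowest enrichment among the 24 peaks and just above the deposited minimum. With this peak, V5 over empty vector IP covered all 190 nt of exon 4, and FLAG over size-matched input covered 172 of them.

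On exon 5 (chr1:10463058-10463209, 152 nt) the peaks were short and lay at the 5′ end. A peak of 11 nt at nt 703 to 713 had a log2 enrichment of 3.76 in V5 over size-matched input and 3.99 in V5 over empty vector IP. A peak of 13 nt with the same start had 3.24 in FLAG over size-matched input. V5 over size-matched input had another peak of 30 nt next to it, at nt 714 to 743, with 3.11. On exon 3 (chr1:10467190-10467332, 143 nt) only V5 over empty vector IP had a peak, of 71 nt at nt 442 to 512, which ended at the last nucleotide of the exon with a log2 enrichment of 3.18. Exon 2 and exon 6, which holds the end of the CDS and the whole 3′ UTR, had 0 peaks in the 4 lists.

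Laid on the spliced mRNA, peaks of neighbouring exons met at the junctions of exons 3 to 5. In V5 over size-matched input, 3 peaks ran without a gap from nt 589 to 743, 155 nt over the junction of exons 4 and 5. In V5 over empty vector IP, 4 peaks ran from nt 442 to 713, 272 nt over 2 junctions. In FLAG over size-matched input, 2 peaks ran from nt 597 to 715, 119 nt over 1 junction, with 1 nt between them at the end of exon 4. In the genome, where peaks are called, introns lie between these peaks.

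Of the 24 peaks on DFFA and DFFB, 8 started or ended at the exact border of an exon, all 8 on DFFA. Among the 17235 peaks of the 4 lists on exons of canonical multi-exon transcripts, 2469 (14.3%) did. Allowing 1 nt of distance, the counts were 10 of 24 and 4031 (23.4%). These shares are not matched for exon length or for region of the mRNA, so nothing is read from the difference. The 4 lists share libraries and overlap on the same exons, so the 24 peaks are not independent of each other.

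The DFFA protein is inactivated by caspase cleavage after aspartates 117 and 224, and their codons were located by translating the canonical CDS. The codon of aspartate 117 lies in exon 3 at nt 420 to 422 of the mRNA, ahead of the only peak on that exon. The codon of aspartate 224 lies in exon 5 at nt 741 to 743, the last bases of the V5 peak at nt 714 to 743 and of the exon 4 to 5 sequence printed above. This is a statement of position in the mRNA and says nothing of the protein.

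The annotation holds 3 transcripts of DFFA, 2 of them coding. The exon 4 peaks lie on 2 of the 3 transcripts, both coding, and those on exons 3 and 5 lie on all 3. The 5′ peaks at nt 7 to 150 lie whole on the canonical transcript alone. Exon 1 of DFFA is overlapped over all of its 207 nt by exons of PEX14, a peroxisomal import gene on the opposite strand. PEX14 had 2 peaks in each of the 4 lists, and 0 of them lay on the part it shares with DFFA. A lncRNA gene (ENSG00000203469) opposite exon 6 had 0 peaks in the 4 lists.

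**Figure D2:**
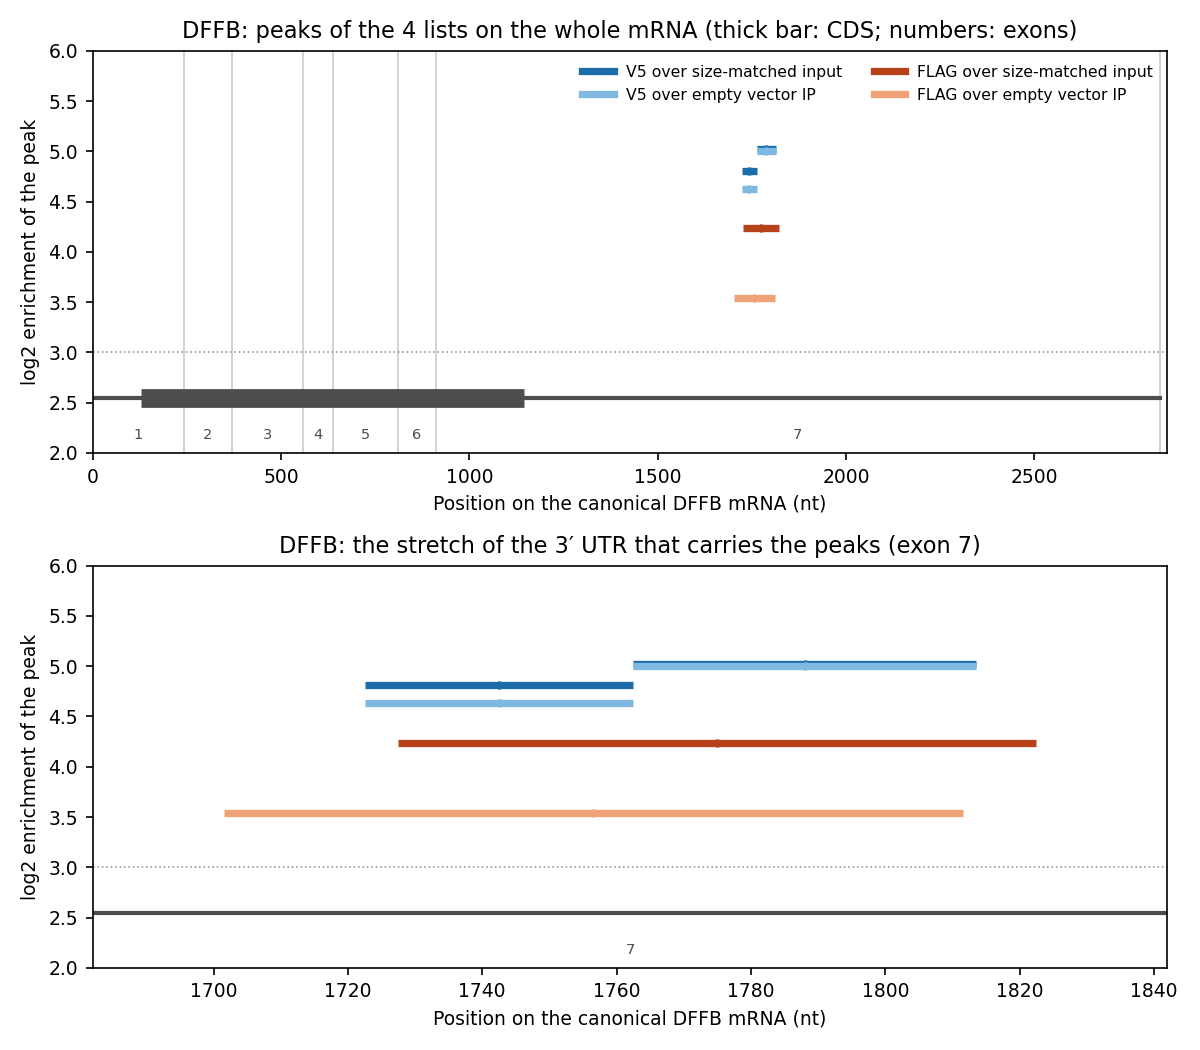
Peaks of the 4 lists on the canonical DFFB mRNA, on the whole mRNA (top) and on the part of its 3′ UTR that carries them (bottom). Axes, bars, colours and lines are as in the map of DFFA, and all 6 peaks lie in a single stretch of exon 7 between nt 1702 and 1822.

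All 6 peaks of DFFB lay in its last exon, exon 7 (chr1:3883507-3885429, 1923 nt), and all within the 3′ UTR. In both V5 lists a peak of 40 nt at nt 1723 to 1762 (chr1:3884319-3884358) touched a peak of 51 nt at nt 1763 to 1813 (chr1:3884359-3884409). The first had a log2 enrichment of 4.81 over size-matched input and 4.63 over empty vector IP. The second had 5.02 and 5.01. The downstream peak was the higher in both V5 lists.

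FLAG had 1 peak over each control across the same place. Over size-matched input it covered 95 nt at nt 1728 to 1822 (chr1:3884324-3884418) with a log2 enrichment of 4.24. Over empty vector IP it covered 110 nt at nt 1702 to 1811 (chr1:3884298-3884407) with 3.54. The FLAG values were below both V5 values over the same control. The −log10 p ranged from 6.77 in FLAG over empty vector IP to 18.3 in V5 over size-matched input, and all 6 values lay below 24.8, the lowest of the exon 4 peak of DFFA.

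The first V5 peak on DFFB began 578 nt past the stop codon, and the second ended 1020 nt before the end of the mRNA. The peaks thus stood inside the 3′ UTR, away from both of its ends and nearer to the stop codon than to the 3′ end. They lie on 8 of the 11 annotated transcripts of DFFB and on 2 of the 3 coding ones. A processed pseudogene of DFFB on chromosome 9, DFFBP1 (chr9:32566148-32567126), had 0 peaks on either strand in the 4 lists. Of 19 pieces of 30 nt laid along the peaks of DFFA and 5 along those of DFFB, 0 had a second exact copy on the assembled chromosomes.

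The 4 lists were intersected first within each tag and then between tags, keeping the part of an interval where at least 50% of the first was covered on the same strand. The study's methods give the order and the minimum overlap but not which interval it refers to. These intervals therefore need not be the study's own set, and the study reported fewer reproducible peaks, in fewer genes, than were found here. The number on DFFB was 1 in place of 2 when 50% of both intervals was required. The intersection left 749 intervals, counted wherever they lay in the genome. Protein-coding genes with at least 1 of them on an exon numbered 414, 2.07% of the 20046. DFFA held 1 interval, the 105 nt of exon 4 printed above. It lies at nt 597 to 701, ends 1 nt before the end of the exon and spans codons 176 to 210 in frame. The mean log2 enrichment of its 4 values was 4.34. DFFB held 2 intervals that touch each other. The 35 nt at nt 1728 to 1762 had a mean of 4.30 and the 49 nt at nt 1763 to 1811 a mean of 4.45, and both draw their FLAG values from the same peaks. In number of intervals neither gene stood apart, as 271 of the 414 genes had 1 interval and 70 had 2.

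Restricted to the peaks behind these intervals, the highest enrichment in log2 over size-matched input, averaged over V5 and FLAG, was 4.08 for DFFA, rank 296 of the 414 genes, and 4.63 for DFFB, rank 143. The median of the 414 genes was 4.42, so DFFA lay below it and DFFB above. Averaged over all 4 lists the means were 4.34 for DFFA, rank 155, and 4.45 for DFFB, rank 128, with a median of 4.16, so both lay above. No replicate error exists for these means, and the distance between the genes was not tested.

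**Figure D3:**
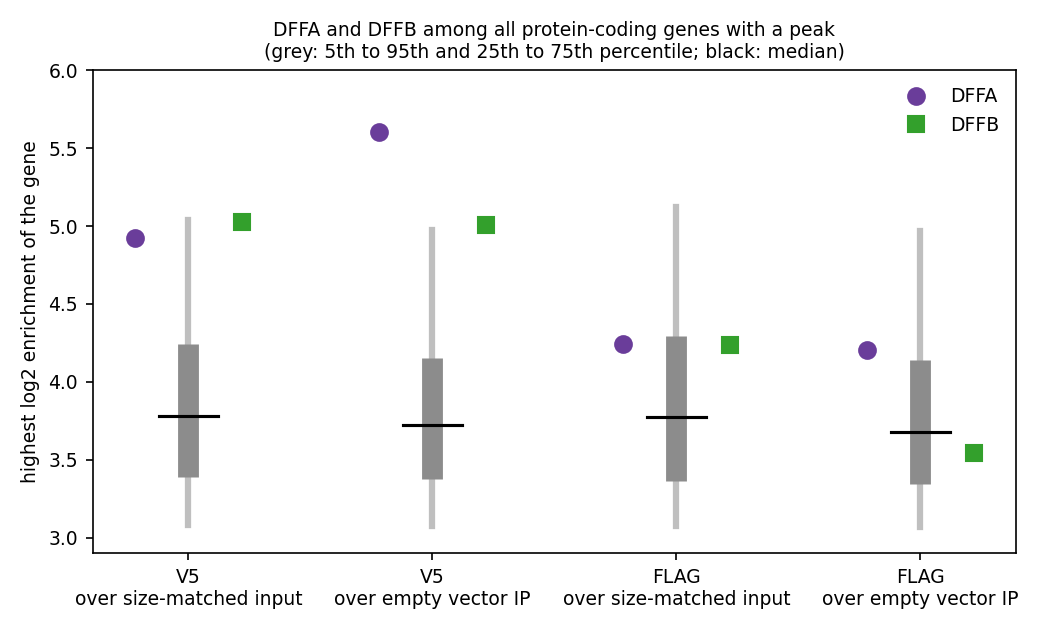
Highest log2 enrichment of DFFA (purple circles) and DFFB (green squares) in each of the 4 lists, on the y axis. Thin grey bars run from the 5th percentile to the 95th and thick grey bars between the quartiles of the highest values of all protein-coding genes with a peak in that list, and black lines give their medians. In the V5 lists both genes stand far above the median, and in FLAG over empty vector IP DFFB lies below it.

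Over all their peaks, the highest log2 enrichment of DFFA was 4.92 in V5 over size-matched input, 5.60 in V5 over empty vector IP, 4.25 in FLAG over size-matched input and 4.21 in FLAG over empty vector IP. The ranks among the protein-coding genes with a peak in the list were 184 of 2717, 20 of 1360, 712 of 2639 and 214 of 995. In the first 3 lists the highest value fell on exon 1, and in FLAG over empty vector IP on exon 4. For DFFB the highest values were 5.02, 5.01, 4.24 and 3.54 in the same order, at ranks 143, 65, 719 and 583. The medians of all genes with a peak were 3.78, 3.72, 3.77 and 3.68, so DFFB was above the median in 3 lists and below it in FLAG over empty vector IP.

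By these highest values, both genes were higher in V5 than in FLAG over each control. Over size-matched input the difference V5 minus FLAG was 0.68 log2 units for DFFA and 0.79 for DFFB, where the median of the 414 genes was −0.12 with quartiles of −0.49 and 0.41. In 53 of these genes the difference was larger than that of DFFA, and in 43 larger than that of DFFB. Over empty vector IP the difference was 1.40 for DFFA and 1.46 for DFFB, beside a median of 0.22 and quartiles of −0.22 and 0.69. There 25 genes lay above DFFA and 23 above DFFB. For DFFA the order depends on the exon, since the V5 maxima lie on exon 1: on the shared exon 4 peak V5 had 4.06 and FLAG 4.10 over size-matched input, and 5.00 and 4.21 over empty vector IP. The tags were compared in separate libraries with no value per replicate, so whether a difference exceeds the spread between replicates cannot be said.

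DFFA had more peaks than DFFB in 3 lists, and both had 1 in FLAG over empty vector IP. In V5 over size-matched input 229 of the 2717 genes (8.43%) had at least the 6 peaks of DFFA, and in V5 over empty vector IP 73 of the 1360 (5.37%) had at least its 7. In FLAG over size-matched input 500 of the 2639 genes (18.9%) had at least its 4. The 2 peaks of DFFB in V5 over size-matched input were the median number per gene in that list.

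The pattern over the 4 lists was compared with the other 413 genes by the Euclidean distance of the highest log2 enrichments. Nearest to DFFA were YWHAB, which encodes a 14-3-3 adapter protein, at 0.60, and SSB, the La protein that binds the ends of RNA polymerase III transcripts, at 0.64. Nearest to DFFB were RPS28, a protein of the small ribosomal subunit, at 0.41, SAMD4B, a Smaug family RNA-binding protein, at 0.46, and DIAPH1, a formin that nucleates actin filaments, at 0.50. DFFA and DFFB lay 0.90 apart, which made DFFB the 16th nearest gene to DFFA and DFFA the 31st nearest to DFFB. The distance rests on 4 values, of which those of the same tag share IP libraries.

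The GU-loop:5nt-stem was called where the pairing probability of the U in a GU was under 0.7 and that of each following base, 5 in all, over 0.5. Pairing probabilities were computed from the sequence with 50 nt of genomic flank. The GU was searched on the transcribed strand, all 7 bases had to lie inside the interval, and calls may overlap. A call is a prediction from sequence, not a measured site.

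The exon 4 interval of DFFA held 6 GU dinucleotides and 0 calls. The GU at nt 689 came closest. All 5 bases after it were paired with more than 0.5, the lowest with 0.54, but its U was paired with 0.76 and so failed the limit. With flanks from the spliced mRNA its U was paired with 0.7055, only just over the limit, and its stem bases with 0.70 to 0.87. Of the 175 intervals of 84 to 126 nt in length, 92 (52.6%) held at least 1 call. The 35 nt interval of DFFB held 5 GU and 0 calls, beside 23 of 89 intervals (25.8%) of 28 to 42 nt.

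The 49 nt interval of DFFB held 4 GU and 2 calls, and 44 of 122 intervals (36.1%) of 39 to 59 nt held any. The first, GUCACCA at nt 1763 to 1769, is the one in capitals in the site printed above. Its U was paired with a probability of 0.20 and its 5 stem bases with 0.96 to 0.98, though its G was itself paired with 0.93. Folded with the flanks of the longer FLAG peaks, the U had 0.32 and the stem bases 0.75 to 0.97, and the call stood. The GU is at the first bases of the downstream V5 peak, so the border between both V5 peaks falls directly before it. The second, GUCAUGG at nt 1782 to 1788, was closer to the limits, with its U at 0.60 and its stem bases at 0.51 to 0.86.

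**Figure D4:**
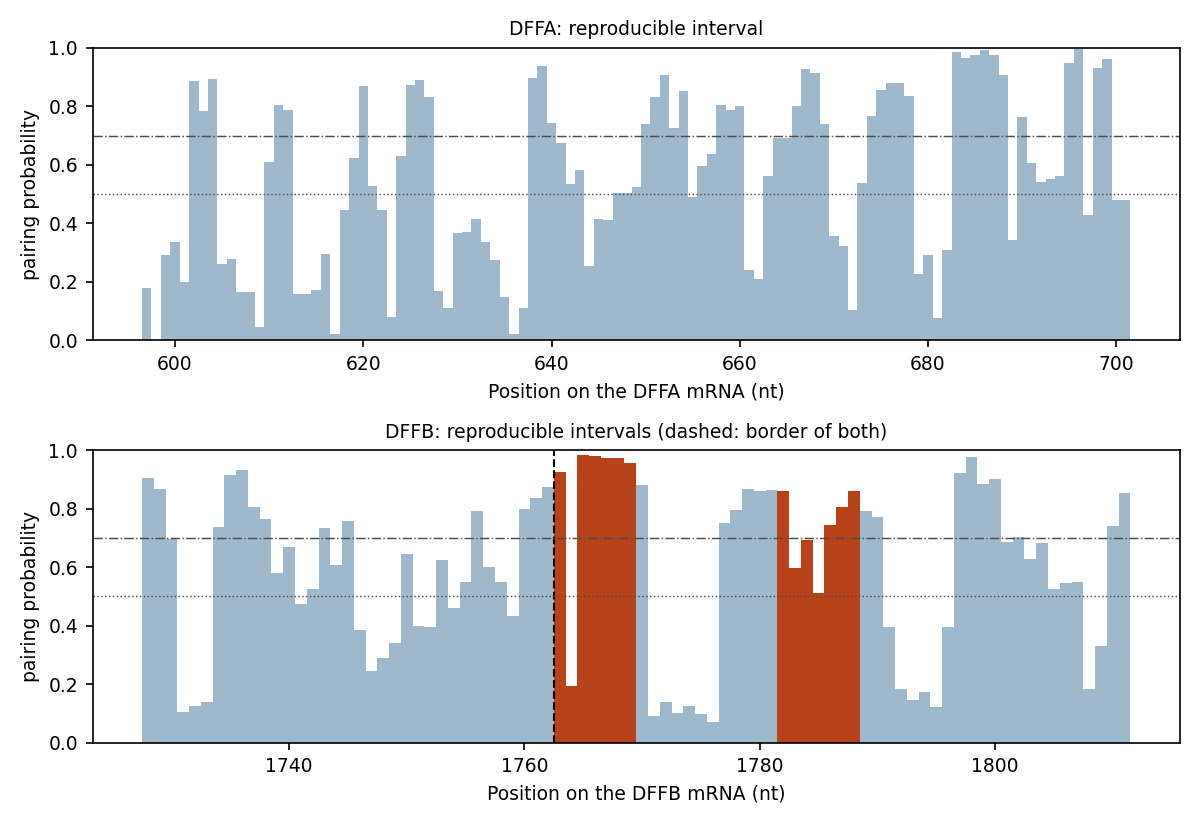
Predicted pairing probability of each base (y axis, 0 to 1) along the intervals shared by all 4 lists, by position on the mRNA in nt, for DFFA (top) and DFFB (bottom, with a dashed line between its 2 intervals). Red bars are the called GU-loop:5nt-stems, and horizontal lines mark the limits of 0.5 for stem bases and 0.7 for the U. DFFB has 2 called motifs, both in the downstream interval, and DFFA has 0.

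Among the single peaks, 9 of 18 on DFFA and 4 of 6 on DFFB held at least 1 call, beside 40.1% of all 18128 peaks. These counts take a site once for each list that covers it, and the 4 peaks on DFFB hold the same 2 calls. The 40.1% is not matched for length. Among the intervals shared by all 4 lists, the share with a call was 25.8% at 28 to 42 nt and 52.6% at 84 to 126 nt. Of the 9 on DFFA, 5 were on exon 1. The V5 peak over the start codon held 3: GUCCCAC at nt 55 to 61, whose U was paired with 0.16 and stem bases with 0.89 to 0.94, GUGGAGG at nt 65 to 71, directly before the start codon, with 0.20 and 0.69 to 0.84, and GUGUCUG at nt 131 to 137 with 0.59 and 0.51 to 0.86. The FLAG peak over size-matched input on exon 1 held the same 3. On exon 5, GUGAGGA at nt 721 to 727 was called in the 30 nt V5 peak, with its U at 0.30 and its stem bases at 0.79 to 0.97. On exon 4 a call at nt 565 to 571, GUGCCAC, was made in the peak at the 5′ end of the exon with genomic flanks, and not when the flanks were taken from the spliced mRNA.

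In base composition, GC made up 54.3% of the DFFA interval and 48.6% and 49.0% of the DFFB intervals, all under the median of 58.5% over the 749 intervals. The exon 1 peaks of DFFA were richer in GC, from 65.1% in the peak over the start codon to 73.3% in the 15 nt peak at the 5′ end.

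DFFA and DFFB were set beside 34 other genes of apoptotic DNA fragmentation and its control, a list of caspases, mitochondrial factors, their inhibitors and nucleases that was drawn up with earlier results of these data known. In V5 over size-matched input 10 of the 34 (29.4%) had a peak, in V5 over empty vector IP 4 (11.8%), in FLAG over size-matched input 7 (20.6%) and in FLAG over empty vector IP 2 (5.88%), where the shares of all protein-coding genes were those given above. In at least 1 list 11 genes (32.4%) had a peak, beside 18.1% of all protein-coding genes. With an interval in all 4 lists there were 2 (5.88%), AEN and DNASE2, beside 2.07%. Expression levels were not part of this count, and nothing particular to the list is drawn from it.

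AEN and DNASE2 are named by rule, and the other genes of the list were chosen for naming after their values were seen. Of the genes upstream of DFFA in the caspase cascade, CASP6, the initiator CASP9 and its platform APAF1 had 0 peaks in the 4 lists. CASP2, an initiator caspase, had 1 peak in each V5 list, with log2 enrichments of 3.33 over size-matched input and 3.10 over empty vector IP, and 0 in FLAG. BAK1, which permeabilizes the outer mitochondrial membrane, reached 4.97 and 4.13 in V5 and 3.92 in FLAG over size-matched input, with 0 peaks in FLAG over empty vector IP. MCL1, DIABLO and XIAP, which restrain or release the cascade, had peaks in both size-matched input lists alone, from 3.08 to 3.59.

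Of the other nucleases, AEN, an exonuclease induced by p53, had 25, 14, 24 and 17 peaks in the order of the lists and reached 5.21, 4.83, 5.64 and 4.31, higher than DFFA in 3 lists and lower in V5 over empty vector IP. DNASE2, the lysosomal DNase that digests DNA of engulfed cells, reached 4.33, 4.51, 3.85 and 3.58, below DFFA in every list. DNASE1 had a peak in FLAG over size-matched input alone, with 4.34. ENDOG, the mitochondrial endonuclease, and CIDEA, CIDEB and CIDEC, which share the CIDE-N domain with DFFA and DFFB, had 0 peaks. The genes AIFM1, TOP2A and PARP1 had peaks in V5 over size-matched input alone, with 3.54, 3.40 and 3.12.

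**Figure D5:**
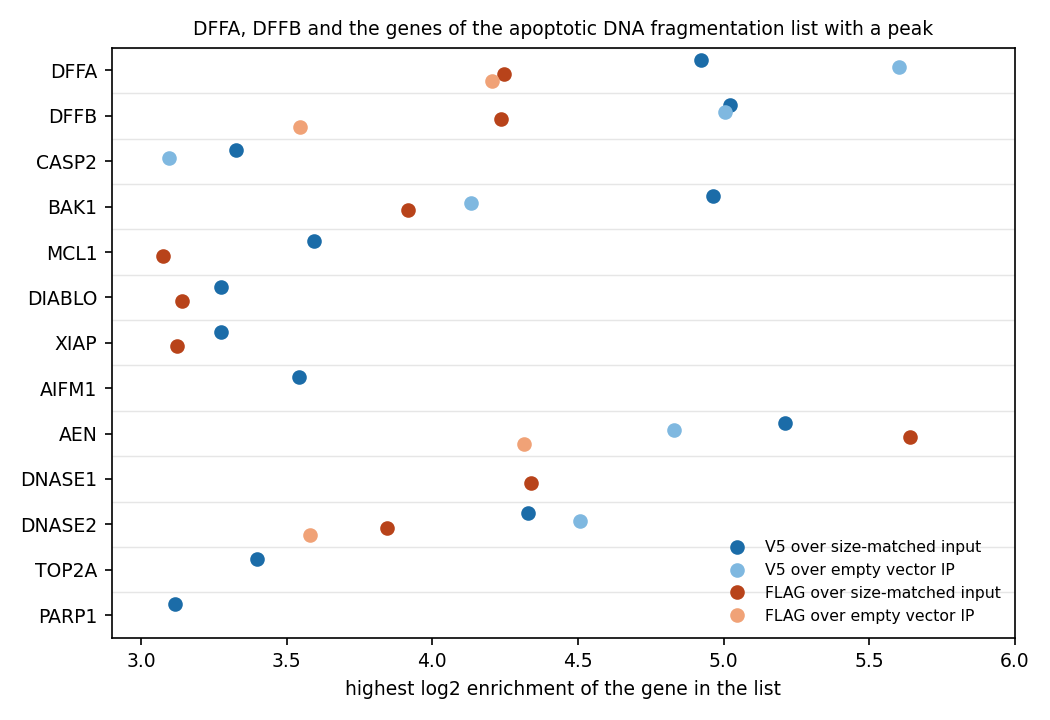
Highest log2 enrichment (x axis) of DFFA, DFFB and the 11 genes of the fragmentation list with a peak (rows) in each of the 4 lists (colours). A missing point means no peak of the gene in that list, and only AEN and DNASE2 share with DFFA and DFFB a point in all 4.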

How the data were processed

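The authors aligned reads to hg38, called peaks with their eCLIP pipeline (version 0.4.0), normalized them to a control, ranked them by entropy and combined both replicates with IDR (Irreproducible Discovery Rate). The submitters' processing notes name UMI-tools 1.0.0, cutadapt 1.14, STAR 2.4.0i and SAMtools 1.6. The authors deposited, per peak, the log2 of the geometric mean of IP over control reads and the −log10 of a p-value. The peak caller's version and annotation are not given in the sources used here. The deposited lists hold 1 value per peak for both replicates and no counts, so the depth per sample is unknown and no test, interval or replicate error was computed. Columns of per-sample values that matched no sample numbered 0.

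From these lists, peaks were assigned to exons of all GENCODE version 44 transcripts on the same strand, at 1 nt of overlap, and a peak counts for each gene it overlaps. mRNA positions follow the canonical transcripts, whose spliced sequences equalled the annotation's own. All coordinates are 1-based. The 4 lists were intersected at a minimum of 50% of the first interval. RNAplfold (ViennaRNA 2.7.2; flanks of 50 nt, window and span of 70, u = 1) gave the pairing probabilities, with Python 3.11.15, Biopython 1.88, numpy 2.4.6 and matplotlib 3.10.9. The intersection and the motif search were tested on simulated data. The members and lists were chosen with earlier results of these data known. The rule for names took DFFA, DFFB, genes of the fragmentation list with an interval in all 4 lists, its caspases and nucleases found over size-matched input with both tags, the 3 genes nearest to each member, and genes opposite their exons. Some genes of these lists are not reported here. The alternatives are given in the closing section. Read data were not analysed here.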

Additional observations from a re-analysis of the deposited data

How the results depend on the processing

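Of 49 alternative settings, 37 left the count or the enrichment within 1.5 times the value reported, and 12 moved it further. A reversal was not possible, since the counts and the enrichments of these lists cannot change sign. On the opposite strand, DFFA had 0 peaks (18 on its own strand) and DFFB 0 (6). A log2 enrichment of at least 4 left 9 of the DFFA peaks, 0 of the 2 DFFB intervals shared by all 4 lists, and 4 of the 11 fragmentation genes with a peak. The DFFA interval in exon 4 was found with the same borders under all 5 alternatives to the intersection. The DFFB intervals numbered 1 in place of 2 with a reciprocal overlap of 50%, with the order of the lists swapped, and with touching peaks merged first, which joined them into 84 nt. As a length-weighted mean over its peaks in place of the highest peak, DFFA had a log2 enrichment of 4.24 in V5 over size-matched input and 4.24 in V5 over empty vector IP, so its 5.60 there rests on a peak of 15 nt. Over size-matched input with both tags, 6 fragmentation genes had a peak. Among genes with any peak, the share with an interval in all 4 was 18.2% of the fragmentation genes in place of 5.88% of the whole list, beside 11.4% of all genes. The FLAG peaks of DFFB had a −log10 p below 10, so that alternative gave no value for them. The motif calls kept DFFA at 0 intervals and DFFB at 1 in all 5 alternatives, but several of these could not have changed the count. For DFFA, the limits of 0.5 for the U and 0.7 for the stem bases are stricter, and the merged stretch is the same interval. For DFFB, the spliced flanks are the same sequence as the genomic ones, as they lie within exon 7. No replicate could be left out. No paired analysis was possible because the lists hold 1 value per peak for both replicates. Depth was unknown, so a region with no peak may be unbound or below the deposited thresholds, and enrichments near 3.00 cannot be told from those just under it.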
